A study of Mus musculus with 6 samples.

Results

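The chemokines and their receptors were examined in whole uteri of female mice on postnatal day 21. Members were chosen by symbol alone: every listed gene named as a Ccl, Cxcl, Xcl, Ccr, Cxcr, Xcr or Ackr gene with a number, together with Cx3cl1 and Cx3cr1 and leaving out Cxcl15. This gave 59 of the 20637 listed genes, of which 37 encode ligands and 22 encode receptors. Poly(A) RNA was sequenced in 3 libraries from Nat10 f/f uteri, the floxed controls, and 3 from Nat10 d/d uteri, in which Nat10 is labelled as deleted. The labels give no Cre driver, no deleted exons, no strain, and no statement of which cells lose the gene. They also do not say whether each library is 1 animal or a pool, so p-values measure only the spread between these libraries.

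Chemokines are small secreted proteins that bind to glycans on cells and matrix and guide migrating cells through G protein-coupled receptors. They are named for the spacing of their first cysteines as CC, CXC, CX3C or XC ligands. Homeostatic ligands such as Cxcl12 and Ccl21a are made constantly by stroma and endothelium, whereas inflammatory ligands such as Ccl2 and Cxcl10 are induced by cytokines and interferons. Atypical receptors (Ackr) bind chemokines without classical G protein signalling and clear them from tissue. In the uterus the family is known for the recruitment of macrophages, natural killer cells, eosinophils and dendritic cells.

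Values are FPKM, fragments per kilobase of transcript, scaled to the library's fragments, which the authors deposited for each gene and library. The targeted gene was read first, as a check of the labels. Nat10 (ENSMUSG00000027185) stood at 13.2, 16.4 and 9.95 in f/f replicates 1, 2 and 3 and at 5.57, 5.23 and 5.53 in d/d replicates 1, 2 and 3. The d/d mean was thus 41.4% of the f/f mean, without overlap (limma adjusted p 0.669). Relative depth, estimated from the lowest values, differed by at most 1.26 times between libraries, and absolute depth is unknown. All 12 stromal, 14 epithelial and 8 smooth muscle markers of the lists used were high enough to be tested. Cell cycle genes differed widely between libraries of 1 genotype, and 16 proliferation markers summed to 140 to 246 in f/f uteri and to 123, 566 and 82.4 in d/d replicates 1, 2 and 3. The d/d replicate 2 also had the highest sum of 14 p53 targets, 644, against 194 to 212 in f/f uteri and 299 and 317 in the other d/d libraries. The f/f replicate 1 stood apart in fat and blood markers: 8 fat markers summed to 108 there and to 2.33 to 21.6 in the other 5 libraries, and 9 blood markers to 5599 there and to 720 to 2642 in the others.

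The family was led by a few homeostatic genes, and most of the others were low. The condition for testing, 3 or more libraries with an FPKM of 1 or above, was met by 31 members, 22 ligands and 9 receptors. The other 28 were not tested, and 22 members stayed below 1 in every library. Ccl19, Ccl26 and Cxcr1 were listed at 0 in all 6 libraries. Mean FPKM over all 6 libraries was at least 10 for 11 members, with Cxcl12 at 138 and Ccl21a at 74.9 in front. They were followed by Cxcl14 at 28.3, Cxcl17 at 21.2, Ccl27a at 18.6 and Ccl21b at 18.5. Cxcl12 alone made up 33.1% to 42.6% of the summed ligand FPKM in f/f uteri and 27.2% to 34.9% in d/d uteri.

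**Figure D1:**
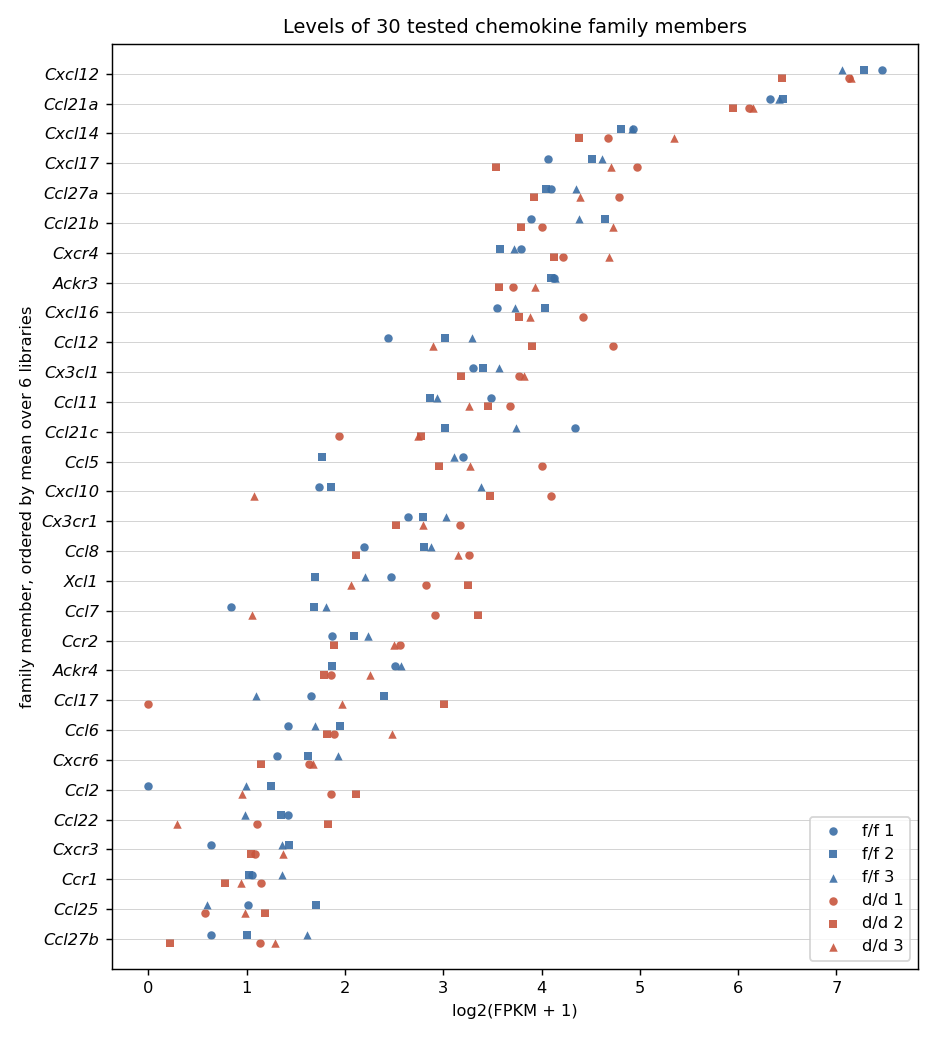
Levels of 30 of the 31 tested members in each library. The x axis is log2(FPKM + 1), and members are ordered by their mean over 6 libraries. Blue points are f/f and red points d/d libraries, with 1 marker shape per replicate number. Cxcl12 and Ccl21a lie above the other members in every library, and most members overlap between genotypes.

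No member passed an adjusted p of 0.05 between d/d and f/f uteri (limma, Benjamini-Hochberg over 12640 genes; smallest adjusted p among members 0.922). The background was also empty, with 0% of all tested genes called. At an unadjusted p under 0.05 there were 4 members, 12.9% of the 31, where 4.98% of all tested genes met this level. Cxcr4 was higher in d/d uteri (2.68% of all genes), and Ackr3, Ccl21a and Ccl21c were lower (2.3% of all genes). The same 4 were the tested members whose f/f and d/d values did not overlap, 12.9% of the 31, where 10.7% of all tested genes did not overlap (6.12% higher and 4.6% lower in d/d uteri). The share of members without overlap was therefore near the background. With array quality weights, which let libraries count unequally, 4 members were called (Ackr3, Ccl12, Ccl21c and Cxcr4), where 2.5% of all genes were. Of the tested members 18 were higher and 13 lower on average, with a median log2 change of 0.02, against 56.6% higher and a median of 0.03 over all genes. The balance moved with scaling, to 15 higher and 16 lower after median centring. Without d/d replicate 2, 10 of 29 tested members did not overlap, where 31.7% of all genes did not. Without d/d replicate 3 it was 11 of 31, where the background was 30.3%, and without f/f replicate 2 it was 7 of 29, where it was 20.5%.

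**Figure D2:**
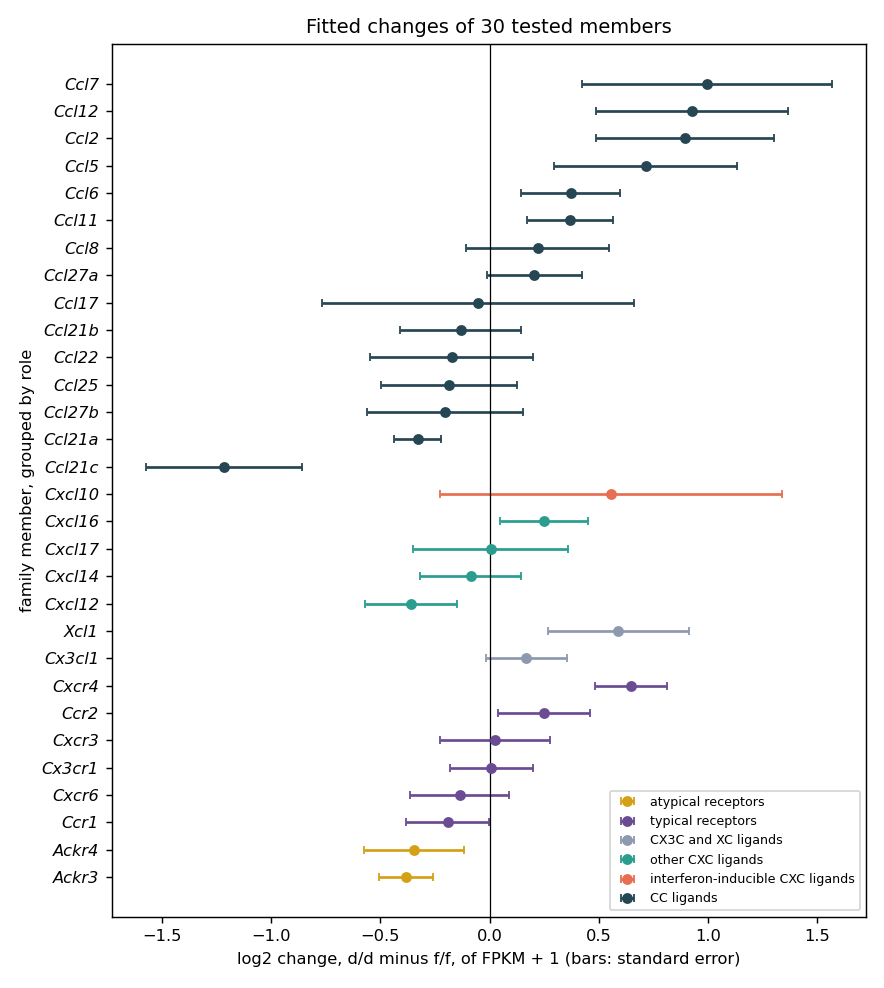
Fitted log2 change, d/d minus f/f, of 30 of the 31 tested members on the log2(FPKM + 1) scale, grouped and coloured by role. Points are limma estimates and bars are standard errors with 3 libraries per genotype. Cxcr4 and the atypical receptors Ackr3 and Ackr4 lie on opposite sides of 0, and the widest bars belong to Cxcl10, Ccl17 and Ccl7.

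Among the receptors the clearest separation was in the pair that binds Cxcl12. Cxcr4 signals Cxcl12-directed migration and retention of leukocytes, endothelial cells and progenitors, and Ackr3 takes up Cxcl12 and degrades it. Cxcr4 (ENSMUSG00000045382, chr1:128588199-128592293, protein-coding) had FPKM values of 12.9, 10.9 and 12.2 in f/f replicates 1, 2 and 3 and of 17.7, 16.5 and 24.8 in d/d replicates 1, 2 and 3. Every d/d library lay above every f/f library. The means were 12.01 ± 0.973 and 19.7 ± 4.51 (SD, n = 3 each), and limma gave a log2 change of 0.65 (SE 0.16; adjusted p 0.922).

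Ackr3 (ENSMUSG00000044337, chr1:90203980-90216751, protein-coding) had FPKM values of 16.5, 16.1 and 16.7 in f/f uteri and of 12.1, 10.9 and 14.3 in d/d uteri. Here every d/d library lay below every f/f library, and the f/f values were close together. The means were 16.4 ± 0.293 and 12.4 ± 1.74 (SD, n = 3 each), and limma gave a log2 change of -0.38 (SE 0.12; adjusted p 0.922). Under the library scalings tried, both genes kept these directions, and neither was called except with array quality weights, where the adjusted p was 0.047 for Cxcr4 and 0.0486 for Ackr3. Over all settings the adjusted p ranged from 0.047 to 1 for Cxcr4 and from 0.0486 to 1 for Ackr3.

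The quotient of Cxcr4 over Ackr3 is unaffected by any scaling that multiplies a library's FPKM by 1 factor. It was chosen after the values were seen. It was 0.78, 0.681 and 0.733 in f/f replicates 1, 2 and 3 and 1.46, 1.52 and 1.74 in d/d replicates 1, 2 and 3. Ackr3 was the more abundant of both per unit length in each f/f library, and Cxcr4 was in each d/d library. The d/d mean was 215% of the f/f mean, and 204% to 222% when any 1 library was left out. Since both genes were picked for groups that do not overlap in opposite directions, the separation of the quotient was fixed by that choice and was not tested.

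The ligand itself, Cxcl12 (ENSMUSG00000061353, chr6:117168535-117181367), had FPKM values of 175, 154 and 132 in f/f uteri and of 139, 85.9 and 141 in d/d uteri. The groups overlapped, since 2 d/d libraries lay above f/f replicate 3, and d/d replicate 2 stood apart below the rest. Limma gave a log2 change of -0.36 (SE 0.21; adjusted p 0.922), and -0.13 without d/d replicate 2. The highest Cxcl12 value was in f/f replicate 1, the library with the most fat and blood marker RNA, whose part was not tested, and without it the change kept its direction. Cxcl12 per Cxcr4 was 13.6, 14.1 and 10.8 in f/f uteri and 7.84, 5.22 and 5.67 in d/d uteri, without overlap, again as a description of a quotient chosen after the values were seen.

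**Figure D3:**
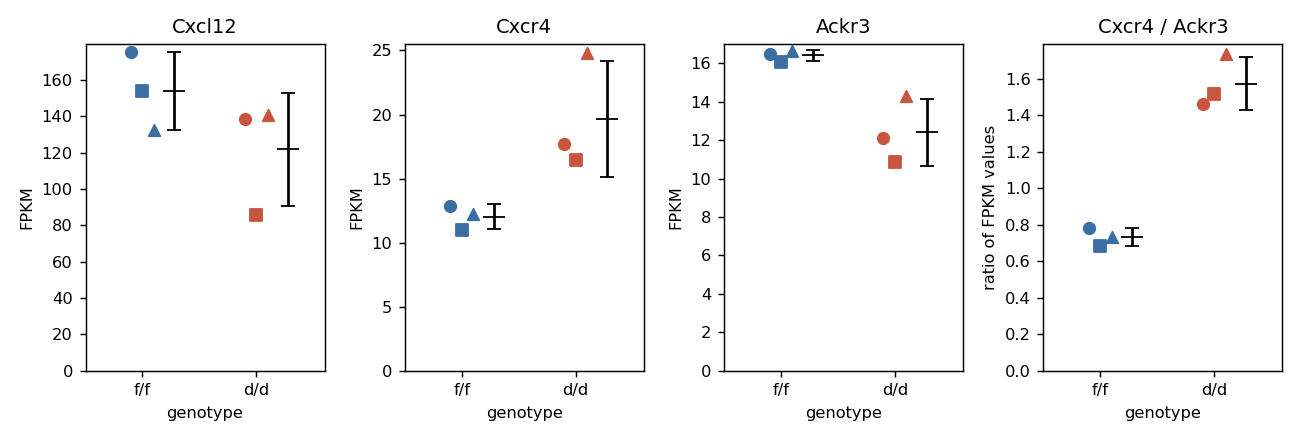
Cxcl12, Cxcr4 and Ackr3 in FPKM, and the quotient of Cxcr4 over Ackr3, in f/f (blue) and d/d (red) libraries. Marker shape gives the replicate number, and the black dash and bar are the mean and SD of 3 libraries. Only the Cxcl12 groups overlap. The quotient lies between 0.681 and 0.78 in f/f and between 1.46 and 1.74 in d/d libraries.

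Markers of the cells that carry these genes were read beside them. In whole tissue, fewer cells of a type and less RNA per cell cannot be told apart. Of 11 tested blood endothelial markers 10 were lower on average, and their 12 listed genes summed to 346 to 389 in f/f and 316 to 354 in d/d uteri. Of 10 general leukocyte markers 8 were higher on average, and they summed to 59.6 to 86.2 in f/f and 69.8 to 104 in d/d uteri. All 12 tested stromal markers were lower on average, with sums of 4275 to 4832 and 3420 to 4795. No marker of these 3 lists was listed at 0 in all 6 libraries, and Sele alone was at 0 in a single one, f/f replicate 1. Their part in the values of Cxcl12, Cxcr4 and Ackr3 was not tested.

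Because Cxcr4 and Ackr3 lie on opposite sides of the comparison, the 250 bases before their annotated starts (RefSeq, GRCm38.p6) are shown. Cxcr4 is read from the minus strand of chr1:128592300-128592549 and Ackr3 from the plus strand of chr1:90203730-90203979, both 5′ to 3′.
Cxcr4: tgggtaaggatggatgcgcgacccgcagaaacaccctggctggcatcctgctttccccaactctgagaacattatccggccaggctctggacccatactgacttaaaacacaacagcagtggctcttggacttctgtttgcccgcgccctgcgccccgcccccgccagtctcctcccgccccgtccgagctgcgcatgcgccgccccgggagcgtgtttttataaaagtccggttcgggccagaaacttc
Ackr3: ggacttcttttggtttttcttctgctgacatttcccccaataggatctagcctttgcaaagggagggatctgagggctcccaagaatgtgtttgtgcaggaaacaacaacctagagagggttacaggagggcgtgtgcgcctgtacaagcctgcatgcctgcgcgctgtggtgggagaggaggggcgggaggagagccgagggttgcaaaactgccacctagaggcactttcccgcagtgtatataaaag
Both strands were searched for the interferon-stimulated response element (ISRE: GAAA, any 2 bases, GAAA) and an NF-kB site (GGG, any 3 bases, TTCC). They were also searched for an AP-1 site (TGANTCA) and for ACGTG, the hypoxia response core with A as its first base. None of these was found in either window. The core with G as its first base, GCGTG, was not searched, and both windows shown hold it. Over all 32851 promoter windows of this length, 2.98% held the ISRE letters, 4.65% the NF-kB letters, 6.75% the AP-1 letters and 16.6% ACGTG.

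Ccl21, the ligand that lymphatic endothelium displays to draw Ccr7-bearing dendritic cells and T cells, is encoded in mice by several near-identical copies on chromosome 4. The files list Ccl21a, Ccl21b and Ccl21c, and 2 further genes, Gm13304 and Gm10591, share the coding sequence. RefSeq gives Ccl21b and Ccl21c among the synonyms of both. The stretch of the 402 coding bases that holds every difference between the 4 copies found in the GENCODE M21 transcripts is shown, from base 64 to base 214 counted from the A of the start codon, with the differing bases in capitals.
Ccl21a: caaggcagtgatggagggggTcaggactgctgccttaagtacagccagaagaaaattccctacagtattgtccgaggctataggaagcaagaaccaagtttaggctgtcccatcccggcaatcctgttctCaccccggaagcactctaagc
Ccl21b: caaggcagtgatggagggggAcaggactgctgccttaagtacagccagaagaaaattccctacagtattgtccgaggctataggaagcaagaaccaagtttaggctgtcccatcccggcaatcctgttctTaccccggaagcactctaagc
Gm13304: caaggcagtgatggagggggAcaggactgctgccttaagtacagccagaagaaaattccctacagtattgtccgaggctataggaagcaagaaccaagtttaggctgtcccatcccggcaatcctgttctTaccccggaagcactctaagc
Gm10591: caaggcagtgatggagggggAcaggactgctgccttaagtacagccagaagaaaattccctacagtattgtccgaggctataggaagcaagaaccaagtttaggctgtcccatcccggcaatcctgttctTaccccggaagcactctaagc
Ccl21b, Gm13304 and Gm10591 were identical over all 402 coding bases. Ccl21a differed from them at 2 bases, T84A and C194T (the base of Ccl21a first), an identity of 99.5%. Short reads that miss these bases cannot be assigned to 1 coding sequence, so the value of any single copy is uncertain.

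Ccl21a (ENSMUSG00000095320) had FPKM values of 79.3, 87.1 and 84.1 in f/f replicates 1, 2 and 3 and of 68.0, 60.9 and 70.0 in d/d replicates 1, 2 and 3. All d/d libraries lay below all f/f libraries, with means of 83.5 ± 3.91 and 66.3 ± 4.80 (SD, n = 3 each). Limma gave a log2 change of -0.33 (SE 0.11; adjusted p 0.922). Ccl21c (ENSMUSG00000096271) had values of 19.3, 7.11 and 12.4 in f/f and of 2.84, 5.83 and 5.72 in d/d uteri, also without overlap, and a log2 change of -1.22 (SE 0.36; limma adjusted p 0.922, and from 0.0417 with array quality weights to 1 over all settings). Its highest value was likewise in f/f replicate 1, and without that library the change was -0.89. Ccl21b (ENSMUSG00000095675, chr4:42255767-42256432) overlapped, with values of 13.8, 24.1 and 19.9 in f/f and of 15.0, 12.9 and 25.5 in d/d uteri.

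Sums over the copies were formed after the values were seen and are given as a description, with no test. The sum of the 3 Ccl21 rows still depends on how reads were divided between Ccl21b and its identical copies Gm13304 and Gm10591. The sum of 5 would be free of the division among these 5 only if their transcripts had equal length. Those lengths were not compared. The 3 Ccl21 rows summed to 112, 118 and 116 in f/f uteri and to 85.9, 79.6 and 101 in d/d uteri, and the d/d mean was 76.8% of the f/f mean. With Gm13304 and Gm10591 added, the sums were 165, 181 and 189 in f/f and 128, 139 and 162 in d/d uteri, or 80.2% of the f/f mean. In both sums every d/d library was below every f/f library, although d/d replicate 3 and f/f replicate 1 were nearly equal in the second. Leaving out any 1 library gave 74.9% to 84.4% for the sum of 5.

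**Figure D4:**
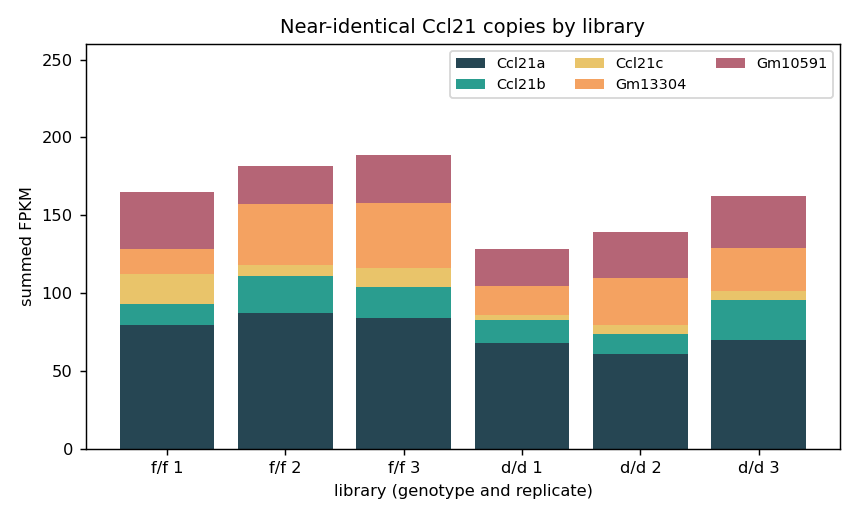
Summed FPKM of the near-identical Ccl21 copies in each library, stacked by copy, with the y axis starting at 0. The 3 f/f bars reach 165 to 189 and the 3 d/d bars 128 to 162, while the shares of the single copies vary among libraries of the same genotype.

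Other genes of lymphatic vessels were read beside these sums. Ackr4, the scavenging receptor for Ccl19, Ccl21 and Ccl25, had FPKM values of 4.68, 2.64 and 4.96 in f/f and of 2.64, 2.46 and 3.79 in d/d uteri, which overlapped (log2 change -0.34, SE 0.23; limma adjusted p 0.924; -0.57 without f/f replicate 2 and -0.22 without f/f replicate 3). Of 6 lymphatic endothelial markers 5 were lower on average, and the list summed to 50.5 to 61.5 in f/f and to 48.0 to 64.6 in d/d uteri with none at 0. Flt4, the lymphatic VEGF receptor, had values of 7.99, 8.57 and 9.75 in f/f and of 4.88, 6.27 and 8.06 in d/d uteri. Its log2 change of -0.42 was the largest of the list, whose median was -0.12. Whether these markers account for the Ccl21 values was not tested. The receptor Ccr7 was below the condition for testing, with 0.282, 1.15 and 0.726 in f/f and 0.603, 0.462 and 0.186 in d/d uteri.

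For Ccl7, Ccl12, Ccl5 and Cxcl10, inflammatory ligands, the SD among the d/d libraries was larger than the difference between the genotype means. Ccl2, Ccl7 and Ccl12 attract Ccr2-bearing monocytes and lie in 1 cluster on chromosome 11, with Ccl11 between Ccl7 and Ccl12 (Ccl2 at chr11:82035571-82037453, Ccl7 at chr11:82045712-82047525 and Ccl12 at chr11:82101845-82103400). Ccl12 had FPKM values of 4.41, 7.11 and 8.78 in f/f replicates 1, 2 and 3 and of 25.4, 14.0 and 6.45 in d/d replicates 1, 2 and 3. Its 2 highest libraries were d/d replicates 1 and 2, and d/d replicate 3 lay within the f/f range. Limma gave a log2 change of 0.93 (SE 0.44; adjusted p 0.922, and from 0.0486 with array quality weights to 1 over all settings). The change was 0.49 without d/d replicate 1, 1.40 without d/d replicate 3 and 1.66 with array quality weights.

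Ccl7 had FPKM values of 0.792, 2.22 and 2.51 in f/f and of 6.53, 9.2 and 1.08 in d/d uteri (log2 change 1.00, SE 0.57; limma adjusted p 0.922), with a change of 0.54 without d/d replicate 2 and of 1.69 without d/d replicate 3. Ccl2 had values of 1.37 and 0.993 in f/f replicates 2 and 3, was listed at 0 in f/f replicate 1, and had values of 2.62, 3.33 and 0.939 in d/d uteri. It was tested only because 3 libraries, 2 of them d/d, reached a value of 1 (log2 change 0.89, SE 0.41, limma adjusted p 0.922). Its change was 0.52 without f/f replicate 1 and 1.97 with a pseudocount of 0.1. Both genes followed Ccl12 in that d/d replicates 1 and 2 were above every f/f library and d/d replicate 3 was not. Summed, the 3 ligands were at 5.2, 10.7 and 12.3 in f/f and at 34.5, 26.5 and 8.47 in d/d uteri (exact permutation test, two-sided p = 0.3, where 3 against 3 libraries cannot give less than 0.1). Without d/d replicate 1 the d/d mean of this sum was 186% of the f/f mean, and without d/d replicate 3 it was 325%.

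Cxcl10 recruits Cxcr3-bearing T and natural killer cells and is a classical interferon target. Cxcl10 (ENSMUSG00000034855, chr5:92346638-92348889) had FPKM values of 2.34, 2.62 and 9.47 in f/f and of 16.1, 10.1 and 1.11 in d/d uteri. The lowest and the highest library were both d/d, and the log2 change of 0.56 was smaller than its standard error of 0.78. Without d/d replicate 1 the change was -0.05. Ccl5, which draws T cells and monocytes, had values of 8.22, 2.41 and 7.61 in f/f and of 15.0, 6.74 and 8.65 in d/d uteri, and it too was highest in d/d replicate 1. Cxcl9, the neighbour of Cxcl10, was below 1 in every library, at 0.451, 0.132 and 0.419 in f/f and 0.855, 0.655 and 0.0515 in d/d uteri. The shared receptor Cxcr3 had 0.558, 1.69 and 1.56 in f/f and 1.12, 1.06 and 1.59 in d/d uteri.

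The interferon response list was read beside these ligands. All 24 tested genes of it were higher on average in d/d uteri, with a median log2 change of 0.75, but 0 had groups that did not overlap and 0 had an unadjusted p under 0.05 in limma. Relative to the f/f mean, the median of the list was -0.91, -0.04 and 0.94 log2 units in f/f replicates 1, 2 and 3 and 1.67, 0.70 and -0.03 in d/d replicates 1, 2 and 3. Cxcl10, Ccl12 and the list had their highest library, d/d replicate 1, in common, and within f/f uteri all of them were highest in replicate 3 and lowest in replicate 1. Ccl5 and Cxcl9 shared that highest library, but within f/f uteri both were highest in replicate 1 and lowest in replicate 2. Ccl2 and Ccl7 were highest in d/d replicate 2. Irf7, an interferon-induced regulator, had FPKM values of 12.9, 43.1 and 86.0 in f/f and of 193, 71.1 and 72.7 in d/d uteri. Whether interferon activity underlies the chemokine values was not tested.

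**Figure D5:**
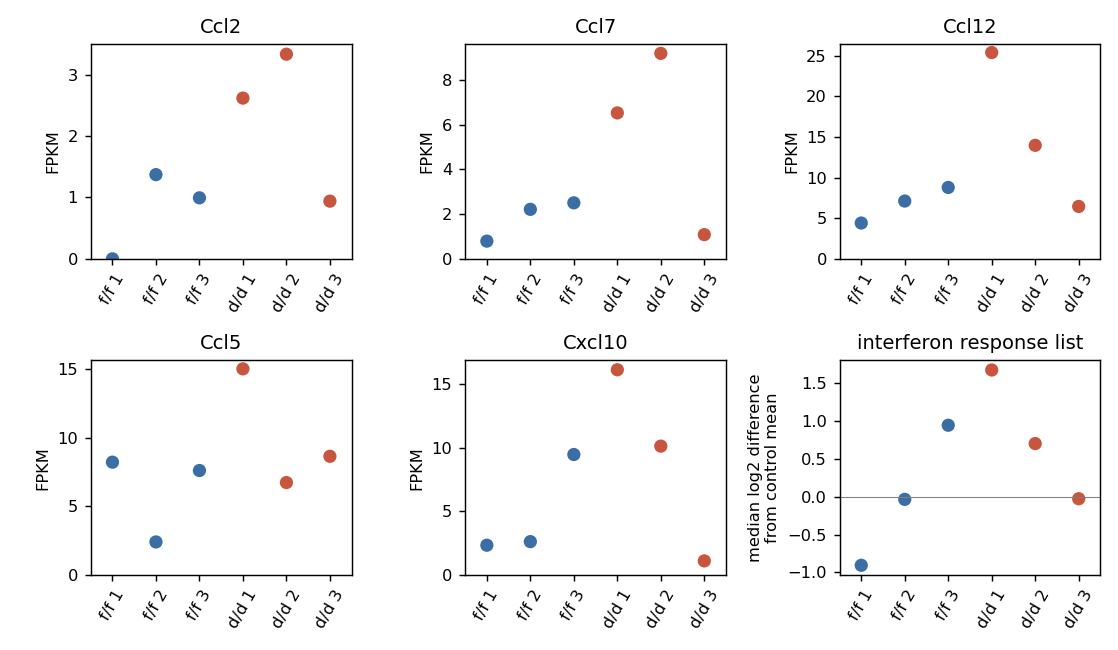
FPKM of Ccl2, Ccl7, Ccl12, Ccl5 and Cxcl10 in each library, and the median log2 difference of the 24 tested interferon response genes from the f/f mean (f/f blue, d/d red). Ccl2, Ccl7, Ccl12 and Cxcl10 lie lower in d/d replicate 3 than in d/d replicates 1 and 2. Ccl5 in d/d replicate 3, at 8.65, lies above every f/f library. For Ccl12, Ccl5, Cxcl10 and the interferon list d/d replicate 1 is the highest library.

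The promoter windows of Cxcl10 and Ccl12 are shown because Cxcl10 is a known interferon target and Ccl12 had its highest library in common with it. They are the 250 bases before the RefSeq start (GRCm38.p6), 5′ to 3′, on the minus strand of chr5:92348890-92349139 for Cxcl10 and on the plus strand of chr11:82101595-82101844 for Ccl12. Capitals mark matches to the letters searched above.
Cxcl10: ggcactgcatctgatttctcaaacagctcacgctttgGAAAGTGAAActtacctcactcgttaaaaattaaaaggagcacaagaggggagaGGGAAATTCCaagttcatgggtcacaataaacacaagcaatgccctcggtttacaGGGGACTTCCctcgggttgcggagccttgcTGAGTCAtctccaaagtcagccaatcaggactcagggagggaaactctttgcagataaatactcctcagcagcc
Ccl12: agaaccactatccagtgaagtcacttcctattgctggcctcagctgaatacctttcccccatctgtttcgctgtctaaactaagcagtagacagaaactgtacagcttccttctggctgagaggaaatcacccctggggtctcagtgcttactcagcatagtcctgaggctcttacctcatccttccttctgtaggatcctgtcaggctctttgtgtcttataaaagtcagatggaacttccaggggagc
In Cxcl10 the first capitals, from 213 to 204 bases before the start, match the ISRE. The matches from 159 to 150 and from 104 to 95 bases before it are to the NF-kB letters, and the match from 74 to 68 is to the AP-1 letters, which read alike on both strands. The Ccl12 window held none of these letters. Of the 44 members with a RefSeq window, 3 held the ISRE letters (Ccl19, Cxcl10 and Cxcl14) and 9 the NF-kB letters. The AP-1 letters were held by 6 and ACGTG by 7. These are counts of genes over 51 windows. The shares given above (2.98%, 4.65%, 6.75% and 16.6%) are of single windows, so the 2 are not alike.

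The neutrophil-attracting CXC ligands were low, and none met the condition for testing. Cxcl5, Cxcl2 and Cxcl3 were each above 0 in 1 library only, a d/d library, and at most at 0.155. Cxcl1 had FPKM values of 0.0862, 0.106 and 0.0965 in f/f and of 1.49 and 0.512 in d/d replicates 1 and 2, and was listed at 0 in d/d replicate 3. Their receptor Cxcr2 was at or below 0.169 in every library and Cxcr1 was listed at 0. The 11 neutrophil markers summed to 3.65 to 10.8 in f/f and 3.49 to 10.6 in d/d uteri, and Camp was listed at 0 throughout.

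Of the constitutive CXC ligands, Cxcl14 is made by epithelium and stroma and Cxcl17 by mucosal epithelium. Cxcl14 had FPKM values of 29.4, 27.0 and 29.4 in f/f and of 24.5, 19.8 and 39.6 in d/d uteri. Its f/f values lay close together, and the d/d values lay on both sides of them. Cxcl17 had values of 15.7, 21.8 and 23.6 in f/f and of 30.3, 10.6 and 25.0 in d/d uteri, with the highest and the lowest library both d/d. The log2 changes were -0.09 (SE 0.23) for Cxcl14 and 0.005 (SE 0.36) for Cxcl17. Cxcl16, a transmembrane ligand of Cxcr6, was at 10.7 to 15.4 in f/f and 12.6 to 20.4 in d/d uteri, and Cxcr6 was at 1.48 to 2.81 and 1.22 to 2.19. In Cxcl12, Cxcl14 and Cxcl17 the lowest library was d/d replicate 2. The 14 epithelial markers summed to 939 to 1019 in f/f uteri and to 904 in d/d replicate 2, with 1030 and 1219 in d/d replicates 1 and 3, and their part in these values was not tested. The 12 stromal markers were divided in d/d replicate 2. Dcn, Pdgfra, Mfap5, Hoxa10, Hoxa11 and Nr2f2 had their lowest library there, with Dcn at 646, whereas Col1a1, Col1a2, Col3a1 and Lum were highest there. The list summed to 4795 in that library against 3545 and 3420 in d/d replicates 1 and 3.

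Cx3cl1 and Xcl1 each overlapped between genotypes, and their sum did not, the only one of the 7 role class sums without overlap, where 10.7% of single tested genes do not overlap. Cx3cl1, a membrane-bound ligand for macrophages and monocytes, had FPKM values of 8.89, 9.61 and 10.8 in f/f and of 12.7, 8.09 and 13.1 in d/d uteri. Xcl1, made by natural killer and T cells for Xcr1-bearing dendritic cells, had values of 4.52, 2.25 and 3.62 in f/f and of 6.07, 8.53 and 3.18 in d/d uteri. Limma gave log2 changes of 0.17 (SE 0.19) and 0.59 (SE 0.32). Leaving out 1 library gave 0.053 to 0.37 for Cx3cl1, lowest without d/d replicate 3 and highest without d/d replicate 2. It gave 0.32 to 0.91 for Xcl1, lowest without d/d replicate 2 and highest without d/d replicate 3. Together they were at 13.4, 11.9 and 14.4 in f/f and at 18.7, 16.6 and 16.3 in d/d uteri, or 130% of the f/f mean (exact permutation test, two-sided p = 0.1). The receptor Cx3cr1 had values of 5.23, 5.93 and 7.13 in f/f and of 7.99, 4.73 and 5.92 in d/d uteri, a difference smaller than the spread in either group. Xcr1 was at 0.465 to 0.673 in f/f and at 1.51, 0.609 and 0.79 in d/d uteri. Of 13 T and natural killer cell markers, 6 were tested and 5 of these were higher on average, with sums of 13.1 to 21.5 in f/f and 18.2 to 26.5 in d/d uteri. Their part in the Xcl1 values was not tested.

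The remaining tested CC ligands overlapped between genotypes. Ccl11 draws eosinophils into the uterus, and was at 6.27 to 10.2 in f/f and 8.56 to 11.8 in d/d uteri. Its receptor Ccr3 was at or below 0.239 in f/f and listed at 0 in every d/d library. Of 8 eosinophil markers only Alox15 and Ear2, which macrophages can also express, were high enough to be tested. The others, among them the defining granule genes Prg2 and Epx, were at or near 0 in both genotypes, so these values give no eosinophil level. The macrophage ligands Ccl6, Ccl8 and Ccl9 were at 1.68 to 2.86, 3.57 to 6.31 and 0.248 to 0.593 in f/f and at 2.53 to 4.56, 3.32 to 8.59 and 0.52 to 0.951 in d/d uteri. Ccl3 and Ccl4 were below 1 in every library. Ccl3 had its lowest d/d value, 0.485, above its highest f/f value, 0.256, but was too low to be tested.

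Ccl17 and Ccl22, which bind Ccr4 and lie on either side of Cx3cl1 on chromosome 8, were both highest in d/d replicate 2. Ccl17 had FPKM values of 2.16, 4.25 and 1.13 in f/f and of 7.06 and 2.92 in d/d replicates 2 and 3, and was listed at 0 in d/d replicate 1. Its log2 change of -0.05 (SE 0.71) became 0.78 without d/d replicate 1. It was -0.83 with a pseudocount of 0.1 and -1.34 with array quality weights. Ccl22 was at 0.973 to 1.67 in f/f and at 1.15, 2.56 and 0.222 in d/d uteri. The epithelial ligand Ccl27a had values of 16.1, 15.5 and 19.4 in f/f and of 26.6, 14.1 and 20.01 in d/d uteri (log2 change 0.20, SE 0.22). It has a copy, Ccl27b, at 0.166 to 2.05, so reads of both may be divided between them. Ccl25 was at 0.488 to 2.25 and Ccl28 at 0.356 to 1.39 over all libraries, and their receptors Ccr9 and Ccr10 were at most at 0.129 and 0.826. Ccl1, Ccl20 and Ccl24 reached at most 1.14, 0.451 and 0.229, and Cxcl13 reached 0.481.

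Of the remaining receptors, Ccr2 of monocytes had FPKM values of 2.65, 3.27 and 3.71 in f/f and of 4.89, 2.71 and 4.66 in d/d uteri (log2 change 0.25, SE 0.21; limma adjusted p 0.939), with 0.13 without d/d replicate 1 and 0.46 without d/d replicate 2. Ccr1 was at 1.04 to 1.57 in f/f and 0.718 to 1.21 in d/d uteri. The 16 macrophage and monocyte markers divided into 7 higher and 8 lower on average among the 15 tested, with sums of 230 to 321 in f/f and 229 to 306 in d/d uteri. Ccr4, Ccr6, Ccr8 and Cxcr5 were at or below 0.223 in every library. The atypical receptor Ackr1, a marker of venules, was at most 0.172 in f/f and at 0.262, 1.02 and 0.46 in d/d uteri, without overlap but too low to be tested, and Ackr2 was at 0.341, 0.502 and 0.521 in f/f and at 0.425, 0.356 and 0.76 in d/d uteri.

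Summed over role classes, the groups overlapped in every class but the CX3C and XC ligands given above. The atypical receptors overlapped narrowly, by d/d replicate 3 and f/f replicate 2, and separated after upper-quartile scaling (exact permutation p 0.2 and 0.1). The CC ligands summed to 164 to 178 in f/f and 159 to 191 in d/d uteri (exact permutation test, two-sided p = 1). Of this sum the 3 Ccl21 rows made up 112 to 118 in f/f and 79.6 to 101 in d/d uteri. It therefore does not show the other CC ligands alone. The typical receptors summed to 27.0, 29.8 and 33.6 in f/f and 40.5, 30.9 and 43.5 in d/d uteri, and the atypical receptors to 21.7, 19.2 and 22.2 and to 15.4, 14.7 and 19.3 (exact permutation test, two-sided p = 0.2 for each). Cxcr4 was the largest term of the first and Ackr3 of the second.

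Genes that act with the family were read from lists. Of 26 tested genes of chemokine receptor signalling, 14 were higher and 12 lower on average with a median log2 change of 0.01, and 2 did not overlap. These were Gnai1, a Gi protein subunit, at 36.8, 39.3 and 37.9 in f/f and 43.6, 49.8 and 45.9 in d/d uteri, and Plcb3, a phospholipase C, at 24.8, 23.6 and 24.2 in f/f and 16.9, 22.9 and 20.3 in d/d uteri. Of 15 tested genes that modify chemokines or build the glycans that present them, 6 were higher and 9 lower with a median of -0.02, and 2 did not overlap. Hspg2, the heparan sulfate proteoglycan perlecan, was at 70.8, 71.0 and 71.5 in f/f and at 46.2, 57.3 and 64.1 in d/d uteri. Sulf1, a heparan sulfate sulfatase, was at 31.02, 23.5 and 23.5 in f/f and at 20.9, 23.3 and 19.3 in d/d uteri. Of 19 tested inflammatory inducers 14 were higher and 5 lower with a median of 0.11. The 2 that did not overlap were Csf3, the granulocyte growth factor, lower at 3.72, 3.01 and 3.7 in d/d against 5.39, 4.76 and 5.83 in f/f uteri, and Relb, an NF-kB subunit, higher at 11.9, 9.59 and 9.8 against 8.04, 8.89 and 8.21. None of these genes passed an adjusted p of 0.05 (limma), and 10.7% of all tested genes do not overlap.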

How the data were processed

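Poly(A) RNA from 6 whole uteri samples was extracted with TRIzol and made into libraries with the Illumina TruSeq RNA kit, per the labels' protocols. The submitters' processing notes list HISAT2 2.2.1, Cufflinks 2.2.1 and the build mm10, without their roles. The deposited values are FPKM, a unit read from the listed Cufflinks and from the values, since the file headers name none. Annotation, strandedness and filters are not given in the sources used here. An exact 0 may be a failed estimate. Samples were grouped by their titles.

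Values were analysed as log2(FPKM + 1), and fold changes on this scale understate changes of low genes. The 12640 of 20637 genes that reached an FPKM of 1 in 3 or more libraries were tested with limma 3.58.1 in R 4.3.3 (group only, eBayes with trend, two-sided, Benjamini-Hochberg over all genes tested, threshold 0.05). Library sums were compared by exact permutation. The test was checked on simulated data. Python 3.11.15, pandas 2.3.3, numpy 2.4.6 and matplotlib 3.10.9 were used. Coordinates are from GENCODE M21 (GRCm38), which holds 55 of the 59 member identifiers. It does not hold those listed for Ccl19, Ccl21a, Ccl21c and Ccl27a, for which no position is given, and the Ccl21a coding sequence was matched by symbol. Promoter windows matched 44 members by symbol.

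The members and lists were chosen with earlier results of these data known. Values in every library were given for tested members without overlap, with an unadjusted p under 0.05 or with a log2 change of at least 1, for the 3 highest of each role class, for the 5 most variable, and for partners of these, except that some members too low to be tested are given by their range, and other members were named to account for the rest. The values of 1 tested member are counted but not reported here. From each gene list up to 3 genes with the smallest p could be named. The alternatives were quantile, median and upper-quartile scaling, no filter, a value of at least 1 in all 6 libraries, no trend, array quality weights, a pseudocount of 0.1, a replicate block, and the omission of 1 library at a time. DESeq2 and edgeR were not run because the values are not counts.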

Additional observations from a re-analysis of the deposited data

How the results depend on the processing

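No family member was called under any setting but array quality weights, which called 316 genes and, among the members, 4 (Ackr3, Ccl12, Ccl21c and Cxcr4). It moved the members' median log2 change from 0.02 to 0.31. Leaving out 1 library gave 0 to 12 called genes, the 12 without d/d replicate 2, and 5 to 11 members without overlap, while 15.0% to 31.7% of all genes did not overlap. The median change was -0.031 to 0.26 in those settings, the highest without d/d replicate 2. Without a low-value filter 7 of 56 members did not overlap (12.5%, against 10.1% of all genes at that setting). The replicate number as a block called 0 members and 0 genes (limma; 6 members and 726 genes at an unadjusted p under 0.05). Deviations of same-numbered libraries correlated at -0.34, -0.03 and 0.1, so the numbers were not taken as pairs. Of 20 tested members named by the rule, 12 kept their direction in each setting that fitted them, which was all 16 but for Ccl2 (12) and Ccl7 (15). After quantile normalization, median centring and upper-quartile scaling the log2 change was -0.018, -0.021 and -0.028 for Cx3cr1 and -0.034, -0.023 and -0.034 for Cxcl17. Cxcl17 was at -0.00081 with a pseudocount of 0.1, and Cxcr3 at -0.0037 after median centring. Leaving out 1 library gave ranges of -0.73 to 0.78 (Ccl17), -0.41 to 0.057 (Ccl21b), -0.0055 to 0.43 (Ccl27a), -0.16 to 0.16 (Cx3cr1), -0.052 to 1.46 (Cxcl10), -0.36 to 0.12 (Cxcl14), -0.28 to 0.44 (Cxcl17) and -0.23 to 0.17 (Cxcr3). The CC ligand sum was 97.6% of the f/f mean after upper-quartile scaling and 94.9% to 104% with 1 library left out, and the sum of the other CXC ligands 79.5% to 100.3%. The cause of these changes was not tested. Absolute depth is unknown, so no counting error can be given for the lowest members.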

Other observations

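Relatives of the family that the naming rule does not take in were also listed, and were chosen after their values were seen. Pf4, the platelet CXC ligand that macrophages also make, had FPKM values of 16.9, 12.6 and 15.4 in f/f replicates 1, 2 and 3 and of 10.6, 19.5 and 5.01 in d/d replicates 1, 2 and 3, a range that includes every value of Ackr3. The platelet genes Ppbp and Gp9 were at most at 0.162 and 0.294 in any library. Itga2b, another platelet gene, had values of 1.498, 0.967 and 1.17 in f/f and of 0.599, 0.842 and 0.833 in d/d uteri, without overlap. Ccrl2, a receptor that presents chemerin, had values of 4.61, 3.68 and 5.37 in f/f and of 5.79, 2.26 and 7.21 in d/d uteri. The chemerin receptor Cmklr1 had values of 3.64, 3.46 and 4.04 in f/f and of 2.31, 2.67 and 4.65 in d/d uteri. All of these but Itga2b overlapped between genotypes.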
